A study of Mus musculus with 9 samples.

Results

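The 10 genes described here are the core of the Notch pathway as it is written in muscle progenitors: the receptors Notch1, Notch2 and Notch3, the ligands Dll1, Jag1 and Jag2, the DNA-binding factor Rbpj and the target genes Hes1, Hey1 and Heyl. They were chosen by name, with earlier results of these data known, and each was taken from the gene-level count table by its Ensembl identifier. All 10 of the 55536 genes in the table were found, and all 10 were among the 15720 genes that passed the filter on low counts. The study compared primary mouse myoblasts, cultured muscle precursor cells with floxed Uqcrfs1 alleles that were given an adenovirus. The product of Uqcrfs1 is the Rieske subunit of respiratory complex III.

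There were 3 groups of 3 libraries. KO oxybutynin libraries came from Uqcrfs1 -/- cells (adenoviral Cre) treated with 7.5 uM oxybutynin, a drug that blocks muscarinic acetylcholine receptors. KO vehicle libraries came from Uqcrfs1 -/- cells given an equal volume of the solvent DMSO. Floxed vehicle libraries came from Uqcrfs1 +/+ cells that received the GFP adenovirus and DMSO. In all groups the cells were seeded 72 h after virus, treated 24 h after seeding and kept for 5 days, in medium with horse serum. Genotype goes with the virus (Cre against GFP), so the effects of these cannot be told apart. No floxed group with oxybutynin was analysed here, so no test could ask whether the drug acts differently in the 2 genotypes. The labels do not say that the libraries of a group came from separate animals or cultures, so p-values here rest only on how these libraries vary, and that variation may be technical.

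Notch is a signal between touching cells. A ligand of the Delta or Jagged family on one cell is pulled by endocytosis, which exposes the receptor on its neighbour to an ADAM protease and then to gamma-secretase. The freed intracellular domain enters the nucleus, joins Rbpj and Mastermind coactivators, and switches on Hes and Hey genes, whose products repress transcription. In mouse skeletal muscle, Notch activity keeps satellite cells quiescent and holds back the myogenic programme, and it falls as myoblasts differentiate.

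The libraries held between 19604971 and 26226949 counts. Uqcrfs1 had 46 to 71 counts in KO oxybutynin libraries and 51 to 70 in KO vehicle libraries, against 1539 to 1881 in floxed vehicle libraries. The KO oxybutynin values were 2.60% to 3.64% of the floxed mean and the KO vehicle values 2.68% to 3.56%. The labels do not say which exons Cre removes, so what remains may hold counts from outside the deleted part. Myoblast markers (Pax7, Myf5, Myod1, Des, Cdh15, Itga7, Vcam1, Ncam1) summed to 4253 to 4499.9 CPM (counts scaled to an equal library size) in KO oxybutynin, 3599.8 to 4396 in KO vehicle and 3408 to 3559 in floxed vehicle libraries. The 8 did not move together. By the edgeR test below, 4 were higher and 2 lower (Cdh15 and Myf5, at -0.88 and -0.39 on the log2 scale) in KO vehicle against floxed vehicle cells, beside 29.9% and 33.4% of all genes. With the trend on GC content and exon length removed, as below, 2 were higher and 3 lower, beside 26.0% and 34.4% of all genes. KO vehicle replicate 3 lay nearer the KO oxybutynin libraries than its own group. Its log2 CPM over all tested genes correlated at 0.9924 to 0.9930 with the KO oxybutynin libraries. With KO vehicle replicates 1 and 2 it correlated at 0.9898 and 0.9862, while replicates 1 and 2 correlated at 0.9849 with each other. Replicate 1 correlated at 0.9883 to 0.9887 with the KO oxybutynin libraries and replicate 2 at 0.9814 to 0.9855.

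In KO vehicle cells, Dll1, Heyl and Notch2 transcripts were lower than in floxed vehicle myoblasts and Hes1 was higher. The same 4 genes differed in the same directions in KO oxybutynin myoblasts, where Notch3 was also higher. Heyl, with at most 10 counts in a KO library, passed the low count filter only through floxed vehicle libraries. With the trend on GC content and exon length removed, as below, Dll1, Heyl and Notch2 stayed lower. Hes1 was then at -0.07 and -0.11 in KO vehicle and KO oxybutynin cells and not called, and Notch3 was called lower in both (-0.14 and -0.16). Both comparisons use the same floxed libraries. By edgeR's quasi-likelihood test with Benjamini-Hochberg adjustment over all tested genes (adjusted p under 0.05), 1 of 10 members was higher and 3 were lower in KO vehicle cells. The test called 63.3% of all 15720 genes in that comparison, 29.9% higher and 33.4% lower. For KO oxybutynin against floxed vehicle, 2 members were higher and 3 lower, beside 71.9% of all genes called, 35.1% higher and 36.9% lower. The median log2 fold change of the members was -0.08 in KO vehicle and -0.05 in KO oxybutynin cells, against -0.01 and 0.00 for all tested genes. These are bulk libraries, in which fewer cells of a type and less RNA per cell cannot be told apart.

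**Figure D1:**
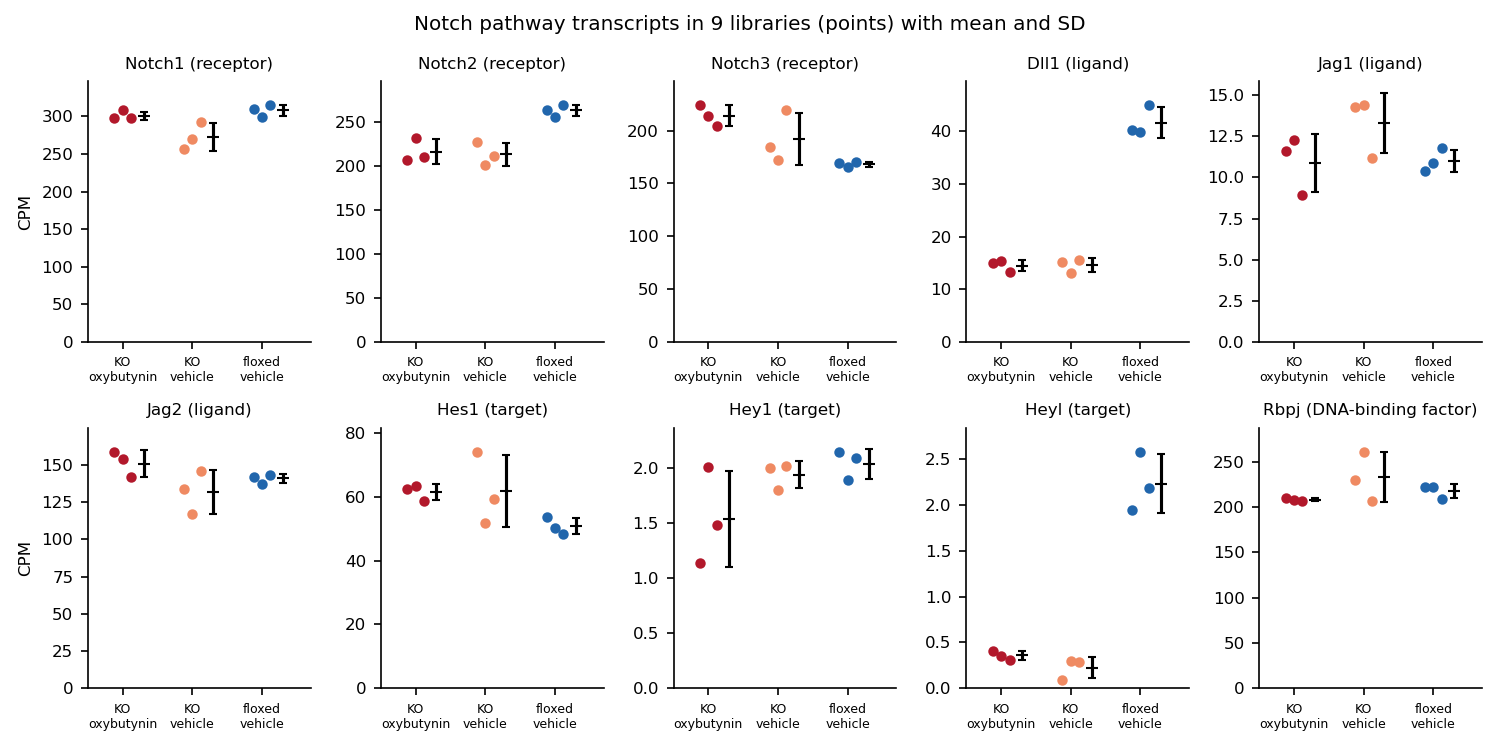
CPM of each of the 10 members (vertical axis, from 0, its own scale in each panel) in the 3 KO oxybutynin, 3 KO vehicle and 3 floxed vehicle libraries; points are libraries, and the bar beside them gives the mean and SD (n = 3). Dll1 and Heyl lie low in all 6 KO libraries, at most 15.6 and 0.408 CPM, against at least 39.9 and 1.94 CPM in floxed vehicle libraries.

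The fold changes moved with base composition. Across 12976 tested protein-coding genes, the log2 fold change was higher at higher exonic GC content, with Spearman's rho of 0.542 in KO vehicle against floxed vehicle, 0.690 in KO oxybutynin against KO vehicle and 0.635 in KO oxybutynin against floxed vehicle. Genes are not independent replicates, and these values are given as descriptions. The members ran from 43.7% GC (Rbpj) to 61.9% (Jag2), beside a median of 49.8% for tested protein-coding genes. A second fit took out, library by library, the trend of counts on GC and exon length before the same test. In it 1 member was higher and 6 lower in KO vehicle against floxed vehicle cells, beside 60.3% of all genes (26.0% higher, 34.4% lower). In KO oxybutynin against floxed vehicle cells 1 was higher and 7 lower, beside 63.0% of all genes (28.0% higher, 35.0% lower). That fit moved the median of all genes to -0.08 and -0.07, and the members' medians to -0.33 and -0.35. Whether the trend with GC content is technical was not tested. Fold changes below are from the counts as deposited unless the trend is said to be removed.

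**Figure D2:**
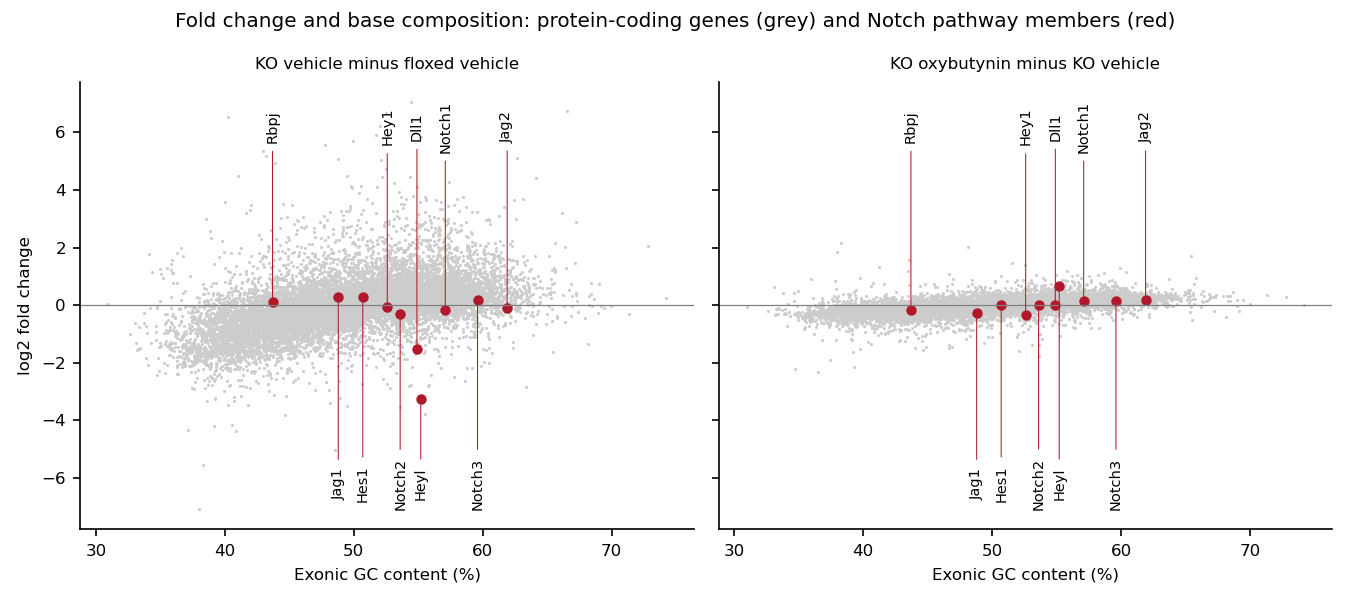
Log2 fold change (vertical axis) against exonic GC content in percent (horizontal axis) for tested protein-coding genes (grey) and the 10 members (red, labelled), for KO vehicle minus floxed vehicle on the left and KO oxybutynin minus KO vehicle on the right. On the left Dll1 (54.9% GC, log2 fold change -1.51) and Heyl (55.2%, -3.27) are the lowest members, while on the right every member lies between -0.33 and 0.65.

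Among the receptors, Notch2 fell in knockout cells. Notch2 (ENSMUSG00000027878, chr3:98013527-98150361, plus strand, GRCm38) encodes a receptor that acts with Notch1 to keep mouse satellite cells quiescent. It had 207, 232 and 210.0 CPM in KO oxybutynin libraries and 227, 201 and 211 CPM in KO vehicle libraries, against 264, 256 and 269 CPM in floxed vehicle libraries. Every floxed library lay above all 6 KO libraries, and the 2 KO groups overlapped. In KO vehicle against floxed vehicle, 1 member lay higher and 4 lower without overlap, and 5 overlapped. In KO oxybutynin against floxed vehicle these were 2, 3 and 5. The share of all genes that separate in this way is not given for these comparisons, where 63.3% and 71.9% were called. Separation from floxed libraries is therefore only a description, here and below. The log2 fold change of Notch2 was -0.30 ± 0.08 (SE) in KO vehicle cells, 1.23-fold lower, with an edgeR adjusted p of 0.00273. In KO oxybutynin cells it was -0.28 ± 0.08, with an edgeR adjusted p of 0.00384. Notch2 was called lower in both comparisons in each alternative that kept this threshold (its size is under the stricter threshold of 1.5-fold), with log2 fold changes between -0.66 and -0.25 for KO vehicle and between -0.75 and -0.23 for KO oxybutynin.

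The promoter of Notch2 is printed because it is the receptor that was lower throughout. It is the 300 bases around the RefSeq start site (250 before and 50 after it), GRCm38.p6, plus strand, chr3:98013288-98013587, 5′ to 3′.
Notch2 promoter: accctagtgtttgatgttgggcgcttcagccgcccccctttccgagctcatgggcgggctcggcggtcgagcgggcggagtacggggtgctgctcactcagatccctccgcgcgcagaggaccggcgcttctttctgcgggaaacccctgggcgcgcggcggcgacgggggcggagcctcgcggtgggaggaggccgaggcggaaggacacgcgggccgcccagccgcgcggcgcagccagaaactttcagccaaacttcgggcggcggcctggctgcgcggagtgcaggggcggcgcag
All its letters are in lower case: it holds no TGGGAA on either strand, the core bound by Rbpj, and no CAGCTG, a form of the E-box bound by myogenic factors.

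Notch1 (ENSMUSG00000026923, chr2:26457903-26516663, minus strand), the partner of Notch2 in satellite cell quiescence, had 298, 308 and 298 CPM in KO oxybutynin libraries. It had 256, 270.3 and 293 CPM in KO vehicle libraries and 310.0, 299.8 and 315 CPM in floxed vehicle libraries. The KO vehicle libraries were the lowest and overlapped neither other group, while KO oxybutynin and floxed vehicle libraries overlapped. The difference between KO vehicle and floxed vehicle cells, -0.17 ± 0.08 on the log2 scale, did not pass the edgeR test (adjusted p = 0.0533). It did once the GC and length trend was removed, at -0.25 ± 0.05 (edgeR adjusted p = 0.000697). As counted without KO vehicle replicate 3, it was called at -0.22 (edgeR adjusted p = 0.00774). In KO oxybutynin against floxed vehicle cells Notch1 was at -0.03 ± 0.08 and not called as counted (edgeR adjusted p = 0.708). There it was called only with a trend removed, at -0.24 ± 0.05 for GC and length (edgeR adjusted p = 0.000923).

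The direction of Notch3 depended on how base composition was treated. Notch3 (ENSMUSG00000038146, chr17:32120820-32166852, minus strand), which restrains the proliferation of mouse satellite cells, had 224, 214 and 204 CPM in KO oxybutynin libraries. Its values were 184, 172 and 219 CPM in KO vehicle libraries and 169, 165 and 170.2 CPM in floxed vehicle libraries. All 6 KO libraries exceeded all floxed libraries, and KO vehicle replicate 3 lay within the range of the KO oxybutynin libraries. The log2 fold change was 0.35 ± 0.09 in KO oxybutynin against floxed vehicle cells (edgeR adjusted p = 0.00177), and -0.16 ± 0.05 with the GC and length trend removed (edgeR adjusted p = 0.0122). In KO vehicle cells it was 0.19 ± 0.09 and not called (edgeR adjusted p = 0.0660), and -0.14 ± 0.05 with the trend removed (edgeR adjusted p = 0.0245). As counted, it was called in KO vehicle cells without KO vehicle replicate 1 (0.26) or 2 (0.27), with edgeR adjusted p-values of 0.0341 and 0.00323. Notch3 has 59.6% GC, more than 94.5% of tested protein-coding genes. It is also a receptor of pericytes and smooth muscle, whose markers (Myh11, Cnn1, Acta2, Rgs5, Pdgfrb, Kcnj8, Abcc9, Cspg4) summed to 1058 to 1193 CPM in KO oxybutynin and 868 to 1143 CPM in KO vehicle libraries, against 512 to 562 CPM in floxed vehicle libraries. Of the 6 tested, 3 were higher and 2 lower in KO vehicle cells, beside 29.9% of all genes higher and 33.4% lower. Acta2, which myoblasts also express, supplied 453 CPM or more of the sum in every library, and Myh11 and Kcnj8 stayed under 1 CPM. The part of such cells in the Notch3 result was not tested.

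Scaled by length, to CPM per kilobase of exon, the receptors differed in order between groups. The length counts every annotated exon base over all transcripts of a gene, so it can exceed that of 1 mRNA. It was 14.232 kb for Notch1, 10.782 kb for Notch2 and 8.089 kb for Notch3. Notch3 made up 39.1% ± 1.54 of the summed receptor level in KO oxybutynin libraries and 37.7% ± 2.20 in KO vehicle libraries, against 31.1% ± 0.227 in floxed vehicle libraries (SD, n = 3 each). Notch2 made up 29.6% ± 1.37 in KO oxybutynin and 31.6% ± 2.49 in KO vehicle libraries, against 36.5% ± 0.124 in floxed vehicle libraries. Notch3 had the highest mean share in both KO groups and Notch2 in the floxed group. Notch1 held 31.3%, 30.6% and 32.4% in KO oxybutynin, KO vehicle and floxed vehicle libraries. These shares were not adjusted for GC content, and they depend on the lengths used: in plain CPM Notch1 held the highest mean share in each group.

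**Figure D3:**
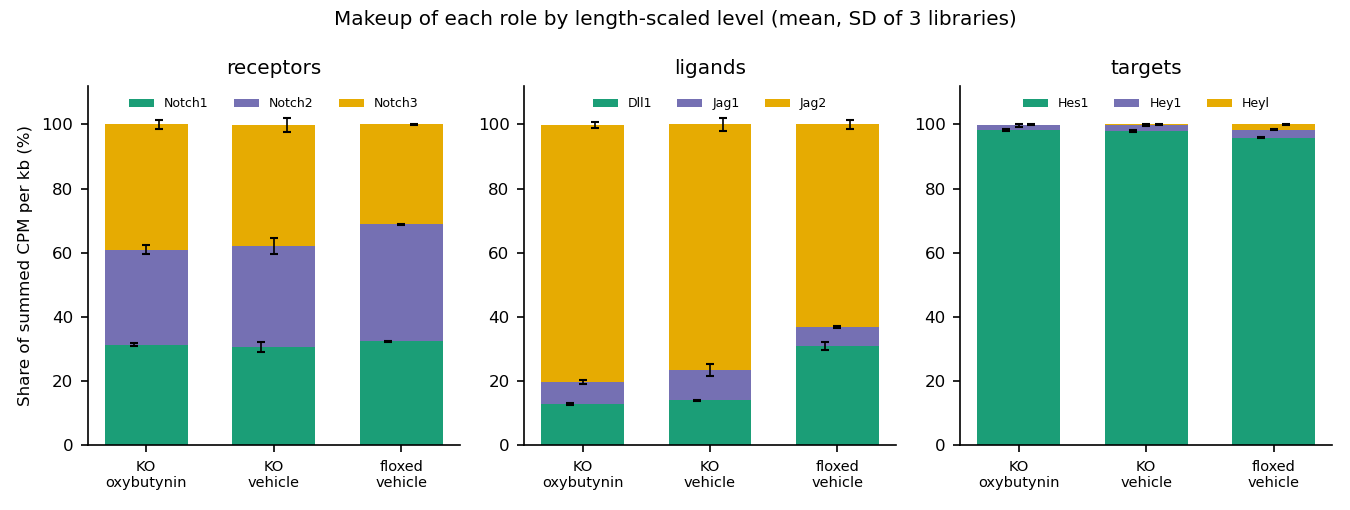
Share in percent (vertical axis) of each receptor, ligand and target gene in the summed CPM per kilobase of its role, stacked, for KO oxybutynin, KO vehicle and floxed vehicle libraries (mean of 3 libraries, error bars SD). The Dll1 share of ligand transcripts is 12.7% and 14% in the KO groups and 30.9% in floxed vehicle libraries.

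Dll1 showed the clearest difference among the ligands. Dll1 (ENSMUSG00000014773, chr17:15367354-15376872, minus strand) encodes the Delta-like ligand whose reduction in mouse embryos lets muscle progenitors differentiate too early. It had 15, 15.3 and 13.3 CPM in KO oxybutynin libraries and 15.1, 13.1 and 15.6 CPM in KO vehicle libraries, against 40.2, 39.9 and 45.0 CPM in floxed vehicle libraries. The 6 KO libraries lay far below the floxed libraries, with no overlap, and the 2 KO groups covered the same range. Dll1 was 2.86-fold lower in KO vehicle cells (log2 fold change -1.51 ± 0.10, edgeR adjusted p = 1.42e-09). In KO oxybutynin cells it was 2.87-fold lower (-1.52 ± 0.10, edgeR adjusted p = 7.76e-10). With the GC and length trend removed the differences were larger, -1.93 ± 0.08 in KO vehicle cells and -2.07 ± 0.08 in KO oxybutynin cells.

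A non-coding transcript on the opposite strand, A930024N18Rik, shares 867 exonic bases with Dll1, and its summed counts came to 9.59% of those of Dll1. It had 37 to 65 counts in each library, against 297 to 1013 for Dll1. The libraries were made with a directional kit, but no source used here states whether counting used strand, so reads of the 2 genes may be mixed.

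RefSeq gives Dll1 2 start sites, and both promoters are shown because Dll1 is the ligand that fell. These are read from the minus strand of GRCm38.p6, 5′ to 3′, promoter 1 at chr17:15375774-15376073 and promoter 2 at chr17:15376883-15377182.
Dll1 promoter 1: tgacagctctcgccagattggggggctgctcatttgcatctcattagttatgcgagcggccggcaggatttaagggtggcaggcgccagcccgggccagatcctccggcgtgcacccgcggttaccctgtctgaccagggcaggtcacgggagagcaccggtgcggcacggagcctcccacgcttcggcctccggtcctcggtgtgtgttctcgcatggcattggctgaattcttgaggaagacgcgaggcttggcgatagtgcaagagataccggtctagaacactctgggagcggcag
Dll1 promoter 2: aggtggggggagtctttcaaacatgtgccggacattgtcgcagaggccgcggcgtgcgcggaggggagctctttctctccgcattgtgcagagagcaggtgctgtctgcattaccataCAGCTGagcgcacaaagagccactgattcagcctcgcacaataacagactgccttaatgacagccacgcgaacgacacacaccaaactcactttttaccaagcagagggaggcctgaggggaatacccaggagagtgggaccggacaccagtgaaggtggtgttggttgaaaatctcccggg
The capitals in promoter 2 mark a CAGCTG that starts 132 bases before the start site. CAGCTG reads the same on both strands and is found in 16.3% of the 32851 promoters of the RefSeq table; it was searched after the values were known. The table matched 7 of the 10 members, with 9 promoters, and CAGCTG was found in those of Dll1 and Jag1. Hes1, Hey1 and Heyl were not matched.

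Jag2 supplied most of the ligand transcript in every group. Jag2 (ENSMUSG00000002799, chr12:112907819-112929776, minus strand), a Jagged ligand, had 159, 154 and 142 CPM in KO oxybutynin, 134, 117 and 146 CPM in KO vehicle and 142, 137 and 143 CPM in floxed vehicle libraries. The 3 groups overlapped. Its log2 fold change against floxed vehicle was 0.10 ± 0.09 in KO oxybutynin cells and -0.09 ± 0.09 in KO vehicle cells, neither called (edgeR adjusted p = 0.291 and 0.372). With the GC and length trend removed it was -0.45 ± 0.05 in both, and called (edgeR adjusted p = 4.5e-07 and 5.63e-07). Per kilobase, Jag2 made up 80.3% ± 0.936 of the ligand level in KO oxybutynin and 76.7% ± 1.96 in KO vehicle libraries, against 63.2% ± 1.30 in floxed vehicle libraries. Dll1 made up 12.7% ± 0.280 and 14% ± 0.176 in these KO groups, against 30.9% ± 1.11 in floxed vehicle libraries.

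Jag1 (ENSMUSG00000027276, chr2:137081456-137116644, minus strand), the other Jagged ligand, was low throughout. It had 11.6, 12.3 and 8.94 CPM in KO oxybutynin, 14.3, 14.4 and 11.2 CPM in KO vehicle and 10.4, 10.9 and 11.8 CPM in floxed vehicle libraries. KO vehicle replicates 1 and 2 were the highest of the 9, and the groups overlapped. In KO vehicle against floxed vehicle cells the log2 fold change was 0.27, with a 95% interval of -0.02 to 0.55 (edgeR adjusted p = 0.0971). It was called at 0.38 without KO vehicle replicate 3 (edgeR adjusted p = 0.0239). In KO oxybutynin against floxed vehicle cells it was -0.01, with an interval of -0.30 to 0.28.

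Rbpj encodes the factor that brings every receptor's intracellular domain to DNA and, without that domain, holds the same genes off. Rbpj (ENSMUSG00000039191, chr5:53466152-53657362, plus strand) had 209.9, 208 and 207 CPM in KO oxybutynin, 229.7, 261 and 207 CPM in KO vehicle and 222, 222 and 209 CPM in floxed vehicle libraries. The KO vehicle group covered the widest range and overlapped both others. As counted, Rbpj was not called against floxed vehicle cells, at -0.06 ± 0.08 in KO oxybutynin and 0.10 ± 0.08 in KO vehicle cells (edgeR adjusted p = 0.518 and 0.330). With the GC and length trend removed it was higher, by 0.92 ± 0.05 in KO oxybutynin and 0.83 ± 0.05 in KO vehicle cells (edgeR adjusted p = 1.75e-10 and 8.23e-10). With the GC trend alone removed it was 0.64 and 0.58. Without KO vehicle replicate 3 it was called in KO vehicle cells at 0.18 (edgeR adjusted p = 0.0372). Rbpj has the lowest GC content of the 10 members, and 18.7% of tested protein-coding genes lie below it. Its processed pseudogenes Rbpj-ps3 and Rbpj-ps1 held 155 and 0 counts in all, 0.340% and 0.00% of the Rbpj counts.

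The Rbpj promoter is shown because it is the gene whose promoters hold the core bound by its own product. Promoter 1 lies at chr5:53590096-53590395, plus strand, GRCm38.p6, 5′ to 3′.
Rbpj promoter 1: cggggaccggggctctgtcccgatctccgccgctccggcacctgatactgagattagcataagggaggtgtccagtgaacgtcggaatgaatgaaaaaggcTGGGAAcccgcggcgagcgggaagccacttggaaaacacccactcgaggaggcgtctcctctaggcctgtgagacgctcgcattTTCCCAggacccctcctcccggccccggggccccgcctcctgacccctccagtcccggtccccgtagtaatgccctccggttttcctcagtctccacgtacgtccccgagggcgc
Capitals mark TGGGAA or its reverse complement TTCCCA, starting 149 and 65 bases before the start site. A second Rbpj promoter overlaps the first and holds the TTCCCA, 205 bases before its own start site. TGGGAA on either strand is found in 25.6% of the 32851 promoters. GTGGGAA, found in 6.38%, was in none of the 9 members' promoters. Nor was the inverted pair TGNGAA facing TTCNCA with 15 to 17 bases between, found in 0.152%. A match is a description of these letters and not a binding site.

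Of the target genes, Heyl fell and Hes1 did not. Heyl (ENSMUSG00000032744, chr4:123233556-123249875, plus strand), a Hey-family repressor that Notch induces in mouse satellite cells, had 10, 9 and 7 counts in KO oxybutynin libraries and 2, 7 and 7 counts in KO vehicle libraries. It had 38, 60 and 49 counts in floxed vehicle libraries. Every KO library lay below every floxed library. In CPM the means were 0.359 ± 0.0470 in KO oxybutynin, 0.223 ± 0.113 in KO vehicle and 2.23 ± 0.321 in floxed vehicle libraries (SD, n = 3 each). The log2 fold change was -3.27 ± 0.35 in KO vehicle cells (9.63-fold lower, edgeR adjusted p = 3.11e-07) and -2.62 ± 0.32 in KO oxybutynin cells (6.14-fold lower, edgeR adjusted p = 1.12e-06). The size rests on 16 counts in all in KO vehicle libraries and 26 in KO oxybutynin libraries, and the 95% interval ran from -4.00 to -2.53 in KO vehicle cells. Heyl kept its call in each alternative that tested it, while a filter at a mean of 1 CPM removed it. It passed the main filter only through floxed vehicle libraries, where it is high, so its calls add no independent support.

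Hes1 (ENSMUSG00000022528, chr16:30064384-30067796, plus strand), a repressor that responds to Notch and to other signals, had 62.3, 63.4 and 58.5 CPM in KO oxybutynin libraries. It had 74.1, 51.9 and 59.4 CPM in KO vehicle libraries and 53.6, 50.3 and 48.4 CPM in floxed vehicle libraries. KO oxybutynin libraries lay above all floxed libraries, whereas KO vehicle replicate 2 lay within the floxed range. Hes1 was higher by 0.28 ± 0.11 in KO vehicle cells and by 0.28 ± 0.11 in KO oxybutynin cells (edgeR adjusted p = 0.0300 and 0.0301). These calls were marginal. Its call in KO vehicle cells was lost without floxed vehicle replicate 2 or 3 or KO vehicle replicate 1 (edgeR adjusted p = 0.0796, 0.108 and 0.134). The KO oxybutynin call was lost without floxed vehicle replicate 2 or 3 or KO oxybutynin replicate 1 or 2 (edgeR adjusted p = 0.0783, 0.107, 0.0694 and 0.0827). After removal of the GC and length trend, the values were -0.07 and -0.11 and not called.

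Hey1 (ENSMUSG00000040289, chr3:8663359-8667256, minus strand), a second Hey-family repressor, had 28, 51 and 33 counts in KO oxybutynin, 43, 43 and 50 in KO vehicle and 42, 44 and 47 in floxed vehicle libraries. The groups overlapped, with KO oxybutynin replicate 1 the lowest. Its log2 fold change in KO vehicle against floxed vehicle cells was -0.07, with a 95% interval of -0.55 to 0.41. In KO oxybutynin against floxed vehicle cells it was -0.40 ± 0.23 and not called (edgeR adjusted p = 0.140), and -0.85 ± 0.23 with the GC and length trend removed (edgeR adjusted p = 0.00368). Without KO oxybutynin replicate 2 it was called at -0.63 (edgeR adjusted p = 0.0382).

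Per kilobase, Hes1 was the most abundant target transcript. Its level averaged 30.2 ± 1.3 CPM per kilobase in KO oxybutynin, 30.3 ± 5.53 in KO vehicle and 24.9 ± 1.28 in floxed vehicle libraries (SD, n = 3 each), the highest mean of the 10 members in every group on this scale. The order depends on the lengths used, 2.037 kb for Hes1 and 14.232 kb for Notch1. In plain CPM, Notch1 had the highest mean in every group, at 301, 273 and 308 in the same order, against 61.4, 61.8 and 50.8 for Hes1. Hey1 averaged 0.473, 0.595 and 0.625 and Heyl 0.0702, 0.0436 and 0.437 CPM per kilobase in KO oxybutynin, KO vehicle and floxed vehicle libraries. In KO oxybutynin libraries the order below Hes1 was Notch3, Jag2, Notch1, Notch2, Rbpj, Dll1, Jag1, Hey1 and Heyl, and Jag2, Notch1 and Notch2 overlapped with their neighbours. In KO vehicle libraries the order was Hes1, Notch3, Notch2, Notch1, Jag2, Rbpj, Dll1, Jag1, Hey1 and Heyl, with overlap between Hes1 and Notch3 and along the run from Notch2 to Rbpj. In floxed vehicle libraries it was Hes1, Notch2, Notch1, Notch3, Jag2, Rbpj, Dll1, Jag1, Hey1 and Heyl, with overlap between Hes1 and Notch2 and between Notch3 and Jag2. Dll1, Jag1, Hey1 and Heyl took the lowest 4 places in all 3 groups, with no overlap between neighbours.

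No member was called between the KO groups, which share the genotype and differ in the drug. For KO oxybutynin against KO vehicle, edgeR's quasi-likelihood test called 0 of 10 members, beside 0.0127% of all genes (2 genes). By the same edgeR test 1 member, Jag2, was under an unadjusted p of 0.05 (0.19 ± 0.09, adjusted p = 0.170). DESeq2 called 0 members, with 0 at an unadjusted p under 0.05 and no adjusted p for Hey1 and Heyl, beside 7.21% of all genes (1134). limma-voom called 0, with 1 under an unadjusted p of 0.05. After removal of the GC and length trend edgeR also called 0, beside 0.0891% of all genes, with 0 under an unadjusted p of 0.05. The 95% intervals of the log2 fold change were -0.02 to 0.30 for Notch1, -0.14 to 0.19 for Notch2, -0.03 to 0.34 for Notch3, -0.23 to 0.22 for Dll1 and -0.23 to 0.22 for Hes1. Heyl, with few counts, had a wide interval of -0.31 to 1.61. In CPM the libraries of the 2 groups did not overlap for 2 members, Notch1 and Heyl, both higher in KO oxybutynin cells, beside 10.5% of all genes higher without overlap and 22.1% in either direction. For Heyl both groups held a library with 7 counts, at 0.314 CPM in KO oxybutynin and 0.293 in KO vehicle, so library scaling alone parts them. Only floxed libraries had more than 10 Heyl counts, and a fit of the KO groups alone left Heyl out.

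These counts turned on KO vehicle replicate 3. It is the KO vehicle library nearest the KO oxybutynin group, so leaving it out can widen the difference between the KO groups. Without it, edgeR called 3 members higher and 2 lower in KO oxybutynin cells, beside 26.0% of all genes (4188; 11.6% higher and 14.4% lower). Notch1 was higher by 0.20 ± 0.06, Notch3 by 0.26 ± 0.07 and Jag2 by 0.27 ± 0.08 (edgeR adjusted p = 0.0342, 0.0132 and 0.0218). Jag1 was lower at -0.39 ± 0.13 and Rbpj at -0.24 ± 0.07 (edgeR adjusted p = 0.0460 and 0.0250). The 3 members that were higher have 57.1% to 61.9% GC, and the 2 that were lower have 48.8% and 43.7%. With the GC and length trend removed as well, edgeR called 0 of the 10 (1 at an unadjusted p under 0.05, Jag1), beside 5.16% of all genes. Notch1, Notch3 and Jag2 then stood at 0.01, 0.01 and -0.01, Rbpj at 0.09 and Jag1 at -0.30. Dll1 was at 0.05 without the library and -0.15 with the trend removed as well, and not called in either. For KO vehicle against floxed vehicle, leaving out the same library gave 3 members higher and 4 lower, beside 57.9% of all genes (27.2% higher, 30.7% lower). Those higher were Jag1, Hes1 and Rbpj, and those lower Notch1, Notch2, Dll1 and Heyl.

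**Figure D4:**
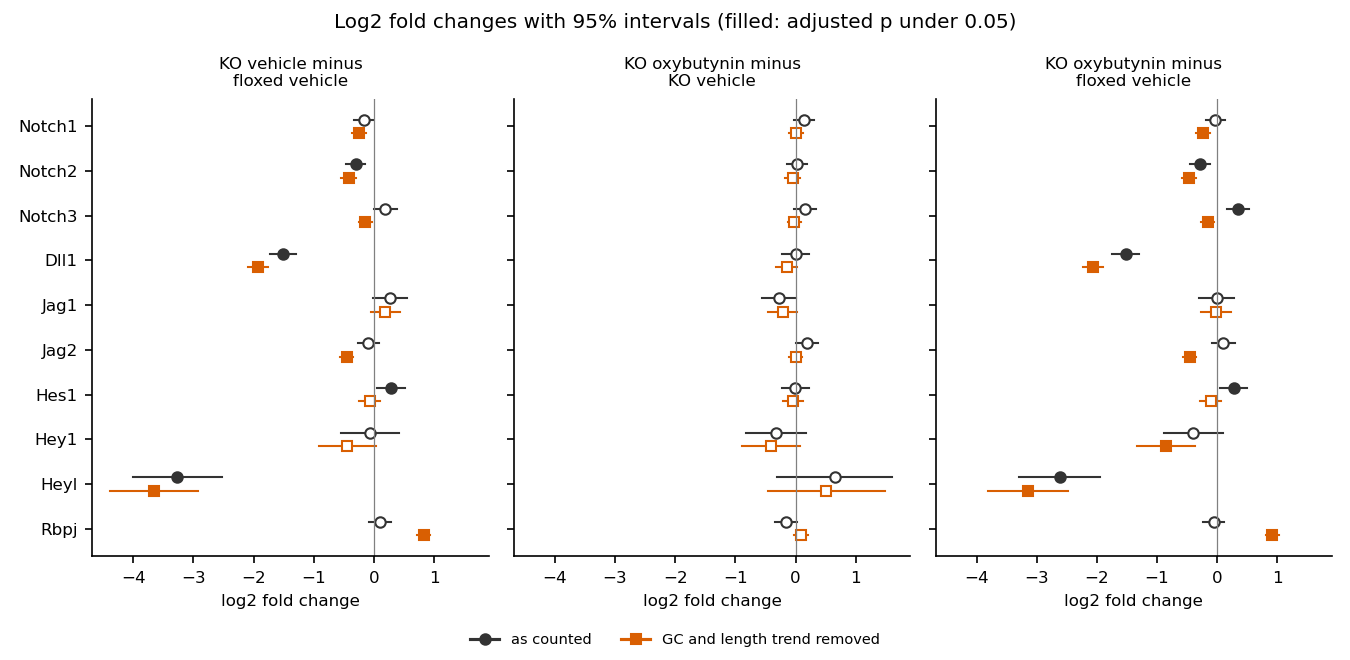
Log2 fold change (horizontal axis, same scale in the 3 panels) with 95% interval for each member in KO vehicle minus floxed vehicle, KO oxybutynin minus KO vehicle and KO oxybutynin minus floxed vehicle; black circles are as counted, orange squares have the GC and length trend removed, and filled symbols passed an adjusted p under 0.05. Dll1 and Heyl are filled and at -1.51 or lower in both panels against floxed vehicle; no symbol is filled in KO oxybutynin minus KO vehicle.

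Over the 9 libraries, Dll1, Heyl and Notch2 moved alike. Pearson's r of log2 CPM was 0.94 between Dll1 and Heyl, 0.94 between Dll1 and Notch2 and 0.81 between Notch2 and Heyl. The most opposed of the 45 pairs of members was Jag2 with Rbpj, at -0.90, the members with the highest and the lowest GC content. Of genes averaging at least 10 CPM, the closest in pattern were Itgb4 for Dll1 (r = 0.998), Ash2l for Notch2 (0.992) and St7l for Heyl (0.977). For the other members they were Leng8 for Notch1 (0.988), Rogdi for Notch3 (0.994), Skap2 for Jag1 (0.919), Ddx39b for Jag2 (0.990), Ndufa6 for Hes1 (0.961), Nrap for Hey1 (0.878) and Zfp365 for Rbpj (0.968). Uqcrfs1 itself came second for Dll1 (0.997). These are descriptions over 9 libraries in 3 groups, which share the difference between genotypes and the libraries' base composition.

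Beyond the 10 members, 74 genes of the pathway were followed in 10 lists, and 65 passed the low count filter. Between KO vehicle and floxed vehicle cells, 18 were higher, 29 lower and 18 not called by edgeR's test, beside 63.3% of all genes called (29.9% higher, 33.4% lower), with a median log2 fold change of -0.03 against -0.01 for all tested genes. Between KO oxybutynin and floxed vehicle cells, 26 were higher, 29 lower and 10 not called, beside 71.9% of all genes called (35.1% higher, 36.9% lower). After removal of the GC and length trend the counts were 14 higher and 33 lower for KO vehicle, and 15 higher and 32 lower for KO oxybutynin, beside 60.3% and 63.0% of all genes called. In each of these comparisons the sign of 13 of the 65 turned with that removal, counting genes called in at least 1 of the 2 fits. The genes below the filter were Dll3, Dll4, Hes2, Hes3, Hes5, Hes7, Mfng, Dtx1 and Calcr. Hes5, a canonical target in neural progenitors, had 0 counts in every library.

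**Figure D5:**
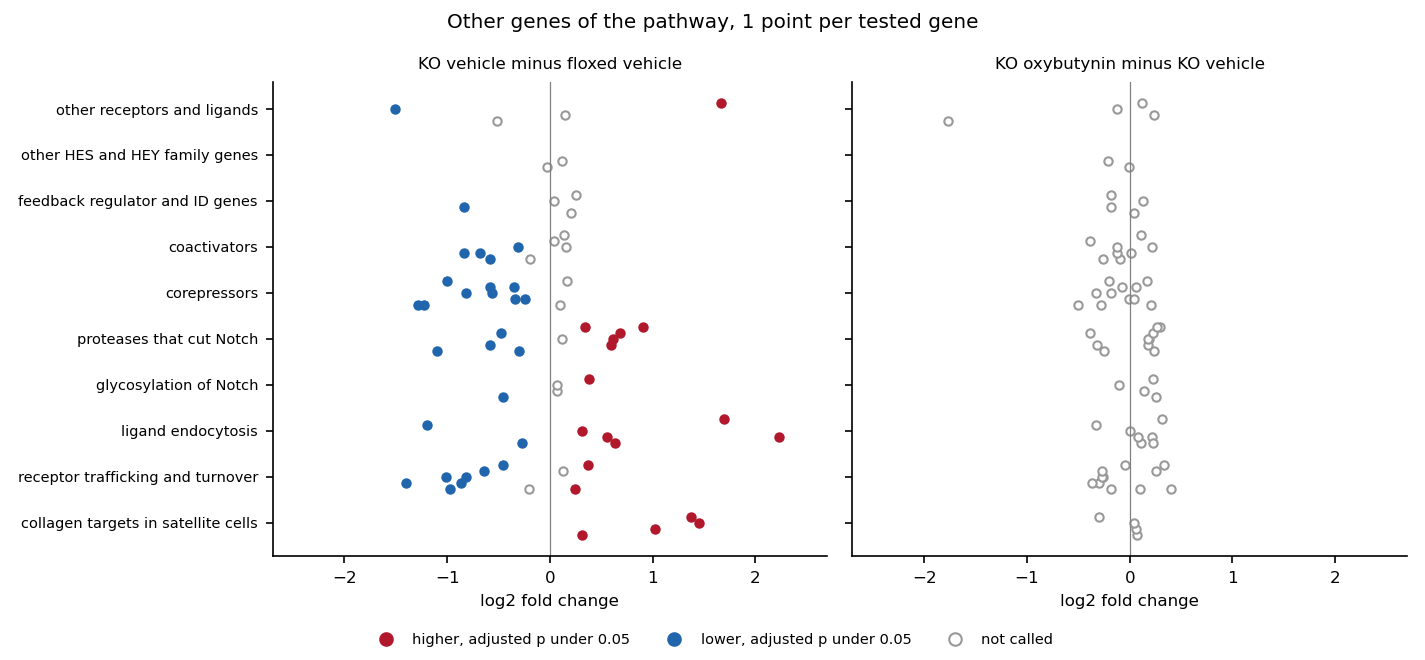
Log2 fold change (horizontal axis) of each tested pathway gene outside the 10 members, by list (vertical axis), for KO vehicle minus floxed vehicle on the left and KO oxybutynin minus KO vehicle on the right; filled points passed an adjusted p under 0.05 (red higher, blue lower). On the left 9 of 11 corepressors and 7 of 11 trafficking genes were called lower, beside 33.4% of all genes, and on the right no gene is called.

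Of the other receptors and ligands, 1 was higher, 1 lower and 2 not called in KO vehicle cells, beside 29.9% of all genes higher and 33.4% lower. Dner, a neuronal Notch ligand, was at 5.12 to 7.51 CPM in KO oxybutynin and 6.23 to 7.31 in KO vehicle libraries, against 17.4 to 21.7 in floxed vehicle libraries, a log2 fold change of -1.51 ± 0.14 in KO vehicle cells (edgeR adjusted p = 5.44e-08). Notch4, a receptor known from endothelium, was higher at 1.67 ± 0.43 (edgeR adjusted p = 0.00277) but stayed under 1 CPM in every library. It had 0.653 to 0.905 CPM in KO oxybutynin, 0.559 to 0.769 in KO vehicle and 0.129 to 0.358 in floxed vehicle libraries, at most 23 counts in a library. Notch4 thus passed the low count filter only through the KO groups, where it is high, so its call adds no independent support. Endothelial markers (Pecam1, Cdh5, Kdr, Tek, Tie1, Emcn, Erg, Vwf) summed to 8.94 to 11.1 CPM in KO oxybutynin and 8.58 to 9.72 in KO vehicle libraries, against 4.96 to 6.44 in floxed vehicle libraries. Tie1 was at 0 in all libraries and 1 of the 4 tested markers, Vwf, was higher, at 6.16 to 8.41, 5.86 to 6.88 and 2.09 to 3.25 CPM in the same order of groups. The part of endothelial cells in the Notch4 result was not tested. Dlk1, a ligand-like protein of muscle development, was lower in KO oxybutynin against floxed vehicle cells at -2.28 ± 0.43 (edgeR adjusted p = 0.000129) and was not called in KO vehicle cells (-0.51, edgeR adjusted p = 0.212). After removal of the GC and length trend it was called there as well (-0.83, edgeR adjusted p = 0.0405). The list then held 1 gene higher and 3 lower, beside 26.0% and 34.4% of all genes. Against KO vehicle, the KO oxybutynin difference in Dlk1 was -1.77 ± 0.45 with an edgeR adjusted p of 0.0675. The Dlk1 values rest on few counts, at most 32 in a library. Its level was 0.135 to 0.393 CPM in KO oxybutynin, 0.502 to 0.978 in KO vehicle and 0.971 to 1.42 in floxed vehicle libraries.

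Signal-sending and receptor-cutting genes moved both ways. Of 7 genes for ligand endocytosis, 5 were higher and 2 lower in KO vehicle cells, beside 29.9% of all genes higher and 33.4% lower. With the GC and length trend removed 3 were higher, 2 lower and 2 not called, beside 26.0% and 34.4% of all genes. The list's median log2 fold change was 0.56 as counted and 0.06 with the trend removed. The ubiquitin ligase Neurl1b had 12.1 to 12.8 CPM in KO oxybutynin and 10.9 to 12.8 in KO vehicle libraries, against 2.45 to 2.62 in floxed vehicle libraries (2.23 ± 0.13 in KO vehicle cells, edgeR adjusted p = 3.1e-10). Mib2 had 61.1 to 72.9 and 46.7 to 64.0 CPM in these KO groups, against 15.8 to 18.1 (1.70 ± 0.12, edgeR adjusted p = 1.44e-09). Mib1, the ligase on which Delta and Jagged endocytosis mainly depends in mice, had 91.3 to 97.8 and 106 to 143 CPM, against 273 to 277 (-1.20 ± 0.10, edgeR adjusted p = 1.14e-08). These ligases kept their calls with the GC and length trend removed, at 1.87 for Neurl1b, 1.25 for Mib2 and -0.51 for Mib1.

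Of 10 genes for proteases that cut Notch, 5 were higher and 4 lower in KO vehicle cells, beside 29.9% of all genes higher and 33.4% lower. With the GC and length trend removed 4 were higher, 3 lower and 3 not called, beside 26.0% and 34.4% of all genes. Adam10, the sheddase of the first cut after ligand binding, had 53.4 to 56.4 CPM in KO oxybutynin and 59.5 to 68.2 in KO vehicle libraries, against 138 to 142 in floxed vehicle libraries (-1.10 ± 0.08 in KO vehicle cells, edgeR adjusted p = 2.7e-09). The gamma-secretase subunits Ncstn (0.60 ± 0.08) and Aph1a (0.61 ± 0.09) were higher (edgeR adjusted p = 2.07e-06 and 1.81e-05). After removal of the trend Adam10, Ncstn and Aph1a were at -0.50, 0.31 and 0.21, still called. The related sheddase Adam17 was lower at -0.90 ± 0.10 in KO oxybutynin and -0.58 ± 0.10 in KO vehicle cells against floxed vehicle (edgeR adjusted p = 5.27e-07 and 9.57e-05), and at -0.38 and -0.25, still called, with the trend removed. Of 4 tested glycosylation genes, 1 was higher and 1 lower in KO vehicle cells as counted, beside the same 29.9% and 33.4% of all genes. Lfng, a Fringe enzyme that tunes receptors towards Delta ligands, was lower at -0.46 ± 0.15 (edgeR adjusted p = 0.0144), and at -1.02 with the trend removed. In KO oxybutynin cells Lfng was not called as counted (-0.20, edgeR adjusted p = 0.240), and was called with the trend removed (-0.96). Rfng, another Fringe, was higher at 0.38 ± 0.12 (edgeR adjusted p = 0.0126) but at -0.18 and not called with the GC and length trend removed. Pofut1, which adds the fucose that Fringe extends, was higher in KO oxybutynin against floxed vehicle cells at 0.22 ± 0.08 (edgeR adjusted p = 0.0272), and 0.14 and not called with that trend removed.

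Nuclear partners of Rbpj were mostly lower. Of 8 coactivators, 4 were lower and 4 not called in KO vehicle cells, and of 11 corepressors 9 were lower and 2 not called, beside 33.4% of all genes lower, with medians of -0.25 and -0.56 against -0.01 for all genes. In KO oxybutynin against floxed vehicle cells 2 coactivators were higher and 6 lower, and 2 corepressors were higher and 8 lower, beside 35.1% of all genes higher and 36.9% lower. The Mastermind gene Maml3 had 44.3 to 48.8 CPM in KO oxybutynin and 44.9 to 47.0 in KO vehicle libraries, against 81.6 to 83.1 in floxed vehicle libraries (-0.84 ± 0.08, edgeR adjusted p = 6.13e-08). The acetyltransferases Ep300 and Crebbp were lower at -0.68 ± 0.07 and -0.58 ± 0.09 (edgeR adjusted p = 4.29e-07 and 1.37e-05). The corepressors Ncor1 and Cir1 were lower at -1.0 ± 0.07 and -1.28 ± 0.15 (edgeR adjusted p = 3.11e-09 and 1.26e-06). The demethylase Kdm5a was lower at -0.82 ± 0.08 (edgeR adjusted p = 1.64e-07), but at 0.01 with the GC and length trend removed. Once that trend was removed 8 corepressors were lower and 3 not called in KO vehicle cells, beside 34.4% of all genes lower. Their median was then -0.47 and that of the coactivators -0.29, against -0.08 for all genes. Of the coactivators 5 were then lower and 1 higher, beside 34.4% of all genes lower and 26.0% higher. That 1 was Snw1, a coactivator that binds Rbpj, at -0.31 and called lower as counted but at 0.38 and called higher with the trend removed (edgeR adjusted p = 0.00874 and 0.000305).

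Of 11 tested genes for receptor trafficking and turnover, 2 were higher and 7 lower in KO vehicle cells, beside 29.9% and 33.4% of all genes. With the GC and length trend removed 1 was higher and 7 lower, beside 26.0% and 34.4% of all genes. Of those higher as counted, Dtx3, a Deltex family gene, was at 0.37 and then at -0.18 and called lower (edgeR adjusted p = 0.00384 and 0.0412). Of those lower as counted, Cdk8, the kinase partner of cyclin C, was at -0.82 and then at -0.07 and not called (edgeR adjusted p = 9.02e-07 and 0.347). Dtx4, a Deltex ligase, was lower at -0.97 ± 0.08, the ligase Itch at -1.01 ± 0.09 and cyclin C (Ccnc), which marks the receptor's intracellular domain for decay, at -1.40 ± 0.13 (edgeR adjusted p = 2.57e-08, 3.87e-08 and 5.78e-08). Once the GC and length trend was removed these were -1.24, -0.23 and -0.31 and still called, so the size for Itch and Ccnc depended on it. Fbxw7, the ligase subunit that follows cyclin C in that decay, was lower at -1.24 ± 0.11 in KO oxybutynin and -0.87 ± 0.11 in KO vehicle cells against floxed vehicle (edgeR adjusted p = 1.46e-08 and 1.41e-06).

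Other HES, HEY and feedback genes were mostly not called as counted. Hes6 had 122 to 148 CPM in KO oxybutynin, 109.9 to 158 in KO vehicle and 136 to 147 in floxed vehicle libraries, and neither it nor Hey2 was called (-0.03 and 0.12, edgeR adjusted p = 0.811 and 0.839). After removal of the GC and length trend Hes6 was lower at -0.61 (edgeR adjusted p = 2.76e-07), as were 3 of the 4 feedback and Id genes, beside 34.4% of all genes. Beside 33.4% of all genes lower in KO vehicle cells as counted, 1 of the 4 feedback and Id genes was lower and 3 were not called. That gene was Id2, an inhibitor of differentiation, at 60.8 to 68.7 CPM in KO oxybutynin and 65.7 to 86.6 in KO vehicle libraries, against 129 to 134 in floxed vehicle libraries (-0.84 ± 0.10, edgeR adjusted p = 8.14e-07). Nrarp, a feedback regulator that Notch induces, had under 1 CPM and was not called (0.25, edgeR adjusted p = 0.588).

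Of the collagen genes that Notch induces in mouse satellite cells, all 4 tested were called higher as counted in both KO groups against floxed vehicle, beside 35.1% of all genes in KO oxybutynin and 29.9% in KO vehicle cells. The median was 1.07 in KO oxybutynin and 1.19 in KO vehicle cells. Once the GC and length trend was removed 2 stayed called in KO oxybutynin cells and 3 in KO vehicle cells, beside 28.0% and 26.0% of all genes higher. Col6a2 was then at 0.69 in KO oxybutynin cells (edgeR adjusted p = 0.0536). Col6a1 had 25.7 to 30.3 CPM in KO oxybutynin and 25.3 to 29.0 in KO vehicle libraries, against 9.40 to 10.2 in floxed vehicle libraries (1.45 ± 0.10, edgeR adjusted p = 2.8e-09). Col5a3 was higher at 1.02 ± 0.18 and Col6a2 at 1.37 ± 0.31 (edgeR adjusted p = 0.0001 and 0.000845), while Col5a1, at 0.31 ± 0.09 (edgeR adjusted p = 0.00749), was at -0.00 with the GC and length trend removed. Calcr, a receptor that collagen V activates in mouse satellite cells, had 7 counts in all libraries together. Fibroblast markers (Pdgfra, Thy1, Dpt, Lum, Dcn, Col1a1, Ly6a, Cd34) summed to 78.8 to 99.3 CPM in KO oxybutynin and 72.6 to 91.0 in KO vehicle libraries, against 28.8 to 31.5 in floxed vehicle libraries. Lum was at 0 in all libraries, Dpt was at 0 in KO oxybutynin and floxed vehicle libraries, and Pdgfra was not called (0.26, edgeR adjusted p = 0.281). Of the 5 tested fibroblast markers 4 were higher, Col1a1 among them, and their part in the collagen result was not tested.

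Among the other pathway genes in KO oxybutynin against KO vehicle cells, edgeR called 0 of 65, beside 0.0127% of all genes (28 at an unadjusted p under 0.05) and limma-voom 0 (27). DESeq2 called 2 higher and 8 lower, beside 7.21% of all genes, with no adjusted p for 10, and 27 were under an unadjusted p of 0.05. Without KO vehicle replicate 3, edgeR called 14 higher and 15 lower, beside 26.0% of all genes. With the GC and length trend removed as well it called 1 higher and 2 lower, beside 5.16% of all genes.

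Of 8 genes that mark the myogenic programme and proliferation, 1 was higher, 6 were lower and Myod1 was not called in KO vehicle against floxed vehicle cells, beside 29.9% of all genes higher and 33.4% lower. With the GC and length trend removed 0 were higher and 6 lower, beside 26.0% and 34.4% of all genes. Myog, which drives terminal differentiation, had 139 to 145 CPM in KO oxybutynin and 127 to 149.6 in KO vehicle libraries, against 181 to 213 in floxed vehicle libraries (-0.55 ± 0.09 in KO vehicle cells, edgeR adjusted p = 2.27e-05). The fusion genes Mymk and Mymx were lower at -0.48 ± 0.10 and -2.41 ± 0.15 and embryonic myosin Myh3 at -1.71 ± 0.13 (edgeR adjusted p = 0.000555, 5.23e-10 and 6.31e-09). Trend removal put Myog at -1.07, Mymk at -1.01, Mymx at -2.91 and Myh3 at -2.02. The proliferation marker Mki67 was lower at -2.72 ± 0.10 (edgeR adjusted p = 1.35e-12), at 66.6 to 80.6 CPM in KO oxybutynin and 86.5 to 101 in KO vehicle libraries, against 564 to 649 in floxed vehicle libraries. Pax7, the satellite cell factor, was higher at 0.26 ± 0.07 (edgeR adjusted p = 0.00416), but at -0.10 and not called with the GC and length trend removed. The myogenic factor Myf5 was lower at -0.39 as counted (edgeR adjusted p = 0.00103), and at 0.14 and not called with the trend removed. Myod1, another, was at 0.22 and not called as counted (edgeR adjusted p = 0.0760), and lower at -0.37 with the trend removed (edgeR adjusted p = 6.87e-06). What part the changes in proliferation and differentiation have in the Notch genes' differences was not tested.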

How the data were processed

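RNA was measured by sequencing in 9 libraries of primary mouse myoblasts. The authors deposited 1 table of raw counts per Ensembl gene for all libraries. Per the labels' protocols, the libraries were made from total RNA with a directional kit. The builds GRCm38 and mm10, STAR 2.7.0e, DESeq2 1.26.0, FastQC, cutadapt and Trim Galore 0.6.0 are named per the submitters' processing notes; no source used here gives the counter, its strand setting or the annotation. The 55536 identifiers all matched GENCODE M21 (GRCm38), which gave symbols, coordinates, exon lengths and GC content.

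Libraries were grouped by their titles. Genes passing filterByExpr (15720) were fitted with edgeR 4.0.16 in R 4.3.3: TMM scaling, 1 mean per group, quasi-likelihood test, 6 residual degrees of freedom, Benjamini-Hochberg adjustment, adjusted p under 0.05. CPM are counts scaled to an equal TMM library size. The fit was checked on simulated counts. With 3 libraries a group and 19604971 to 26226949 counts each, genes with at most 60 counts a library (Heyl, Hey1) are the least precise. No 2 libraries of a group agreed within sampling noise. Promoters came from RefSeq (GRCm38.p6).

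Alternatives were DESeq2 1.42.0, limma-voom (limma 3.58.1), RLE scaling, library totals alone, other low count filters, only the groups compared, GC and length trends removed (natural splines, 5 degrees of freedom), stricter thresholds and leaving out each library. Chosen after seeing the data were the GC trend alone, protein-coding genes only, and the GC and length trend removed without KO vehicle replicate 3. Named genes were the 10 members, Uqcrfs1, up to 3 called genes per list and comparison with the lowest adjusted p, genes below the filter, the myogenic context and marker genes whose values stand beside a result, and the closest gene in pattern; Hes6, Hey2, Nrarp, Snw1, Dtx3, Cdk8 and the second-ranked Uqcrfs1 were added after their values were seen. The members and lists were chosen with earlier results of these data known.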

Additional observations from a re-analysis of the deposited data

How the results depend on the processing

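Dll1, Heyl and Notch2 kept direction and call against floxed vehicle cells in all alternatives that could test them at the same threshold. A mean of at least 1 CPM left Heyl out, and the main filter passed it only through floxed vehicle libraries. As reported, the counts of members higher and lower were 1 and 3 in KO vehicle and 2 and 3 in KO oxybutynin cells against floxed vehicle. The number higher in KO vehicle cells was 2 with library totals, 3 with no filter, and 0 at an adjusted p under 0.01, among protein-coding genes alone or at a change of at least 1.5-fold; in KO oxybutynin cells it was 1 with library totals, the GC and length trend removed, the GC trend alone removed (also without KO vehicle replicate 3), protein-coding genes alone or the stricter p, and 0 at 1.5-fold. The number lower was 6 and 7 with either trend removed, also without KO vehicle replicate 3. In KO vehicle cells it was 4 with limma-voom, protein-coding genes alone or without KO vehicle replicate 3. In KO oxybutynin cells it was 4 without KO oxybutynin replicate 2 and 2 with a mean of at least 1 CPM. With only the groups compared 3 were higher in KO oxybutynin cells. Leaving out 1 library gave 0 to 3 higher in KO vehicle cells, 1 to 2 higher in KO oxybutynin cells, and 0 to 3 higher and 0 to 2 lower between the KO groups.

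Of the other pathway genes, at 1.5-fold 11 were higher and 16 lower in KO vehicle cells (18 and 29 as reported) and 16 higher in KO oxybutynin cells (26 as reported), where 15 were higher with the GC and length trend removed, 10 with GC alone, and 16 with the trend removed without KO vehicle replicate 3. Between the KO groups DESeq2 gave 2 higher and 8 lower, no filter 2 and 5, leaving out 1 library 0 to 14 and 0 to 15, and the trend removed without KO vehicle replicate 3 gave 1 and 2.

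Among the genes named with a fold change, signs turned as follows, with the GC and length trend removed, the GC trend alone removed, and the first of these without KO vehicle replicate 3. For KO vehicle against floxed vehicle, Notch3 was at -0.14, -0.30 and -0.16, Col5a1 at -0.00, -0.17 and -0.01, Rfng at -0.18, -0.11 and -0.24, Snw1 at 0.38, 0.38 and 0.42, Dtx3 at -0.18, -0.11 and -0.18, Pax7 at -0.10, -0.15 and -0.07, Myf5 at 0.14, 0.33 and 0.14, and Myod1 at -0.37, -0.27 and -0.40. For KO oxybutynin against floxed vehicle, Notch3 was at -0.16, -0.35 and -0.15, Jag2 at -0.45, -0.61 and -0.45, Rbpj at 0.92, 0.64 and 0.91, Col5a1 at -0.10, -0.30 and -0.09, Rfng at -0.16, -0.09 and -0.16, Snw1 at 0.51, 0.51 and 0.51, Pax7 at -0.11, -0.18 and -0.11, Myf5 at 0.04, 0.26 and 0.04, and Myod1 at -0.36, -0.24 and -0.35. Hes1 turned in the first and last of these, to -0.07 and -0.04 in KO vehicle and -0.11 and -0.11 in KO oxybutynin cells, as did Dtx3 in KO oxybutynin cells (-0.06 and -0.05), Kdm5a in the first alone (0.01, KO vehicle) and Pofut1 with GC alone (-0.08, KO oxybutynin). The alternatives remove a trend that these genes' GC content lies on; the cause of the trend was not tested. Over all alternatives, member fold changes gave the same call 533 times, a new call 33 times, a lost call 12 times and a turned sign 16 times.

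Without division by exon length, Notch3 held 29.3% and 28.2% of receptor CPM in KO oxybutynin and KO vehicle libraries and Notch2 35.6% in floxed vehicle libraries, so Notch1 led in each group. In KO oxybutynin, KO vehicle and floxed vehicle libraries Jag2 then held 85.6%, 82.5% and 72.8% of ligand CPM, and Hes1 97.0%, 96.5% and 92.2% of target CPM. Heyl and Hey1, with at most 60 counts a library, are limited by depth. No paired analysis was possible because the library numbers do not repeat between groups.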
